A study of Mus musculus with 16 samples.

Results

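The genes described here are 35 markers of endothelial cells, the cells that line blood and lymphatic vessels, measured in newborn mouse ovaries that lacked Runx1, Foxl2 or both. They were taken by name from a list of endothelial genes, and all 35 were measured among the 18193 genes of the array that a probe set named singly. Each gene was read by the probe set with the highest mean level over the 16 arrays. The list held 9 receptors, 7 adhesion and junction proteins, 7 transcription factors, 5 ligands and secreted proteins, and 7 other membrane, enzyme and signalling proteins.

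The study asked what combined and single loss of RUNX1 and FOXL2, transcription factors of the supporting cells, does to the XX gonad. A single ovary, separated from the mesonephros at birth (P0), was hybridised to each Affymetrix Mouse Genome 430 2.0 array, with 4 ovaries of each of 4 genotypes. DKO ovaries were Runx1-/f Foxl2-/- with the Sf1-Cre transgene. Foxl2 KO ovaries were Runx1+/f Foxl2-/- without the transgene. Runx1 KO ovaries were Runx1-/f Foxl2+/+ with the transgene. Control ovaries were Runx1+/f Foxl2+/+ without it, so all 16 ovaries carried a floxed Runx1 allele. Sf1-Cre acts in the somatic cells of the gonad, whereas the Foxl2 and Runx1 null alleles were present in every cell, vessels included. Because the transgene and the germline Runx1 null allele were carried together by Runx1 KO and DKO ovaries alone, loss of Runx1 in gonadal somatic cells, the transgene and the null allele cannot be told apart here. The mice were of mixed genetic background, and the labels do not say which ovaries came from littermates.

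Vessels grow into the ovary while its germ cells and supporting cells assemble into the first follicles, and the growing bed is held together by a few well-known systems. VEGF binds the receptor KDR to drive endothelial growth and FLT1 acts largely as a decoy for it, angiopoietins signal through TEK with TIE1 as a partner, and cadherin 5 and claudin 5 seal the junctions between neighbouring cells. The ETS factors ERG and FLI1 and the SOXF factors SOX7, SOX17 and SOX18 maintain endothelial gene expression. Several markers are shared with blood cells, TAL1 with erythroid precursors and PECAM1, CD34, FLI1 and VWF with platelets, leukocytes or their progenitors, and LYVE1 is made by lymphatic endothelium and by some macrophages.

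ETS and SOX proteins regulate endothelial genes, and FOXL2 and RUNX1 belong to the forkhead and RUNX families, so the sequences upstream of the members were searched for a short core motif of each of these 4 families. RefSeq promoters on GRCm38.p6 were at hand for 18 of the 35 genes, 23 promoters in all, and the 250 bases before each start site were read on both strands. The ETS core AGGAAG, or its reverse complement, stood in 11 of the 23 (47.8%), against 29.5% of 32851 promoters of all genes. The forkhead core GTAAACA stood in 0 of the 23, against 3.17% of all promoters, and the SOX core ATTGTT stood in 3 (13.0%), against 9.42%. The RUNX core TGTGGT stood in 1 (4.35%), that of Apln, against 14.1%. No motif contains another, short matches of this kind occur often in any sequence, and some of the 23 promoters belong to the same gene. The promoters of 5 members are shown, Tie1, Flt1 and Robo4 for their ETS cores, Apln for its RUNX cores, and Kdr, the member called when ovaries were pooled by Foxl2 status, which held none of the 4 motifs. They run 5′ to 3′ on the strand of the gene, and capitals mark the motif letters, on whichever strand the motif lies.
Tie1, GRCm38.p6 chr4:118489850-118490099, minus strand: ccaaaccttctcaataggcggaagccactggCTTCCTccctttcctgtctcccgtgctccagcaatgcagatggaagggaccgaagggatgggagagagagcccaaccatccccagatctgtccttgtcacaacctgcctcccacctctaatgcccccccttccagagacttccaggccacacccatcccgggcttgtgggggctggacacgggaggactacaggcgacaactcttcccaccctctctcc
Flt1, GRCm38.p6 chr5:147726012-147726261, minus strand: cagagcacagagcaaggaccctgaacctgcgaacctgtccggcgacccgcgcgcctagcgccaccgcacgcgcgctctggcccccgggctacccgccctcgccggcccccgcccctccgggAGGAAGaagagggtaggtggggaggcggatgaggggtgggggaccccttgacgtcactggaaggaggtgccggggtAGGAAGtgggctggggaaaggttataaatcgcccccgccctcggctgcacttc
Robo4, GRCm38.p6 chr9:37401722-37401971, plus strand: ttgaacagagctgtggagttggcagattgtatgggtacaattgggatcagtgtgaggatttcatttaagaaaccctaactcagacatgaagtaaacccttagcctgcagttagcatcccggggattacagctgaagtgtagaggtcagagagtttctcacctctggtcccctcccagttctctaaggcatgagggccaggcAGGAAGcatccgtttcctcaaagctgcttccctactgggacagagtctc
Apln, GRCm38.p6 chrX:48034854-48035103, minus strand: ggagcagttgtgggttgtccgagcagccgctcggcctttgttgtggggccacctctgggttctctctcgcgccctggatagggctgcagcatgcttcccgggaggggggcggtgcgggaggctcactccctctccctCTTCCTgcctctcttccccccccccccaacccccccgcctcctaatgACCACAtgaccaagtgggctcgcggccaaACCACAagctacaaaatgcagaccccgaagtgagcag
Kdr, GRCm38.p6 chr5:75978456-75978705, minus strand: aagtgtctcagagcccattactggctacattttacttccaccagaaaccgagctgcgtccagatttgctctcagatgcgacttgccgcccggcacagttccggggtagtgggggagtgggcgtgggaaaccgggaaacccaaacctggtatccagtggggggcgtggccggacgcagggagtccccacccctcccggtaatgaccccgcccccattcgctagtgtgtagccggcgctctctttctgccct

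The targeted genes were read first. Foxl2 was at 570, 736, 839 and 661 in DKO ovaries and 484, 714, 863 and 890 in Foxl2 KO ovaries, in units of deposited array intensity, against 3585, 3065, 2641 and 3412 in Runx1 KO ovaries and 3588, 4191, 4241 and 2774 in control ovaries. Runx1 was at 2370, 2111, 2227 and 2205 in DKO ovaries, 2455, 2356, 3054 and 2555 in Foxl2 KO ovaries, 1701, 1221, 932 and 2127 in Runx1 KO ovaries and 2238, 2142, 2359 and 2204 in control ovaries. Foxl2 thus separated the genotypes as labelled, while Runx1 was below every control ovary in all 4 Runx1 KO ovaries and in 1 of the 4 DKO ovaries (ovary 2). Whether its probes fall within the floxed exon is not known here, so that Runx1 does not check the DKO label.

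Control ovary 4 stood apart in blood cell genes: the mean deviation of 5 measured erythroid genes from their averages was 3.18 on the log2 scale, against -0.71 to 0.16 in the other 15 ovaries, with Alas2, Slc4a1, Klf1 and Epb42 above and the globin gene Hba-a1 below all other ovaries (1.34, against 2.14 to 40.7), and that of 6 pan-leukocyte genes was 2.08, against -0.58 to 0.25. The summed intensity of the leukocyte genes ranged from 3109 to 4331 in DKO, 3494 to 5418 in Foxl2 KO, 3491 to 5437 in Runx1 KO and 3540 to 11360 in control ovaries. The summed intensity of the erythroid genes ranged from 363 to 602 in DKO, 290 to 452 in Foxl2 KO, 387 to 474 in Runx1 KO and 367 to 14160 in control ovaries. The same ovary also lay outside the other 15 in germ cell genes (-0.60, against -0.32 to 0.44) and slightly in megakaryocyte genes (0.52, against -0.45 to 0.41). The 34 endothelial members other than Tal1 deviated by -0.04 in that ovary, within the range of the other 15 (-0.35 to 0.30). The 6 Y-linked genes on the array, which XX ovaries do not carry, read between 6.84 and 299.6 as intensity equivalents, the highest being Sry. Esm1 lay below the lowest of the 6 in every genotype, so it is read here as not above background, and 17 members lay below the Sry reading in every genotype. The next highest Y-linked reading was 55.4 (Usp9y), and only Esm1 lay below that in every genotype. Hba-a1 was below 55.4 in every ovary, so its reading in control ovary 4 cannot be told from background.

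No endothelial gene passed the test against control in any genotype. At an adjusted p under 0.05 over all genes, 0 of 35 were called in DKO ovaries, where 2.13% of all genes were called, 0 of 35 in Foxl2 KO ovaries, where 1.52% were, and 0 of 35 in Runx1 KO ovaries, where 0.121% were. The test was limma's moderated test on log2(intensity + 16), with one spread shared by the 16 arrays. At an unadjusted p under 0.05, limma gave 3 members in DKO ovaries (1 higher and 2 lower, with a background of 12.4% of all genes, 8.19% higher and 4.18% lower), 4 in Foxl2 KO ovaries (1 higher and 3 lower, background 11%, 7.17% higher and 3.82% lower) and 4 in Runx1 KO ovaries (all lower, background 7.34%, 4.62% higher and 2.72% lower). The first count was a smaller share of the 35 than the background, the second about the same share and the third a larger one.

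With all 16 ovaries, more members were below than above control in each knockout, by differences that did not pass the test, and in DKO ovaries the majority turned when control ovary 2 or control ovary 3 was left out. In DKO ovaries 14 were higher and 21 lower than in control, with a median log2 difference of -0.07 beside 0.04 over all genes, of which 42.7% were lower. In Foxl2 KO ovaries 7 were higher and 28 lower, with a median of -0.07 beside 0.05, and 41.1% of all genes were lower. In Runx1 KO ovaries 8 were higher and 27 lower, with a median of -0.18 beside 0.04, and 43.7% of all genes were lower. The 3 comparisons share the same 4 control ovaries, and these counts rest on few of them. The number of higher members in DKO ovaries became 19 without control ovary 3 and 18 without control ovary 2. The number of higher members in Foxl2 KO ovaries became 17 without Foxl2 KO ovary 1, 14 without control ovary 2 and 12 without control ovary 3. In Runx1 KO ovaries it became 16 without Runx1 KO ovary 2, 14 without control ovary 3 and 5 without Runx1 KO ovary 1. Counting genotypes that did not overlap, Nos3 was higher and Ets1 lower in DKO than in control ovaries (background 4.9% higher and 2.71% lower), Esm1 was lower in Foxl2 KO ovaries (background 4.49% higher and 2.23% lower) and 0 members separated in Runx1 KO ovaries (background 2.53% higher and 1.44% lower). In whole ovaries, fewer endothelial cells and less RNA of these genes per cell cannot be told apart.

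**Figure D1:**
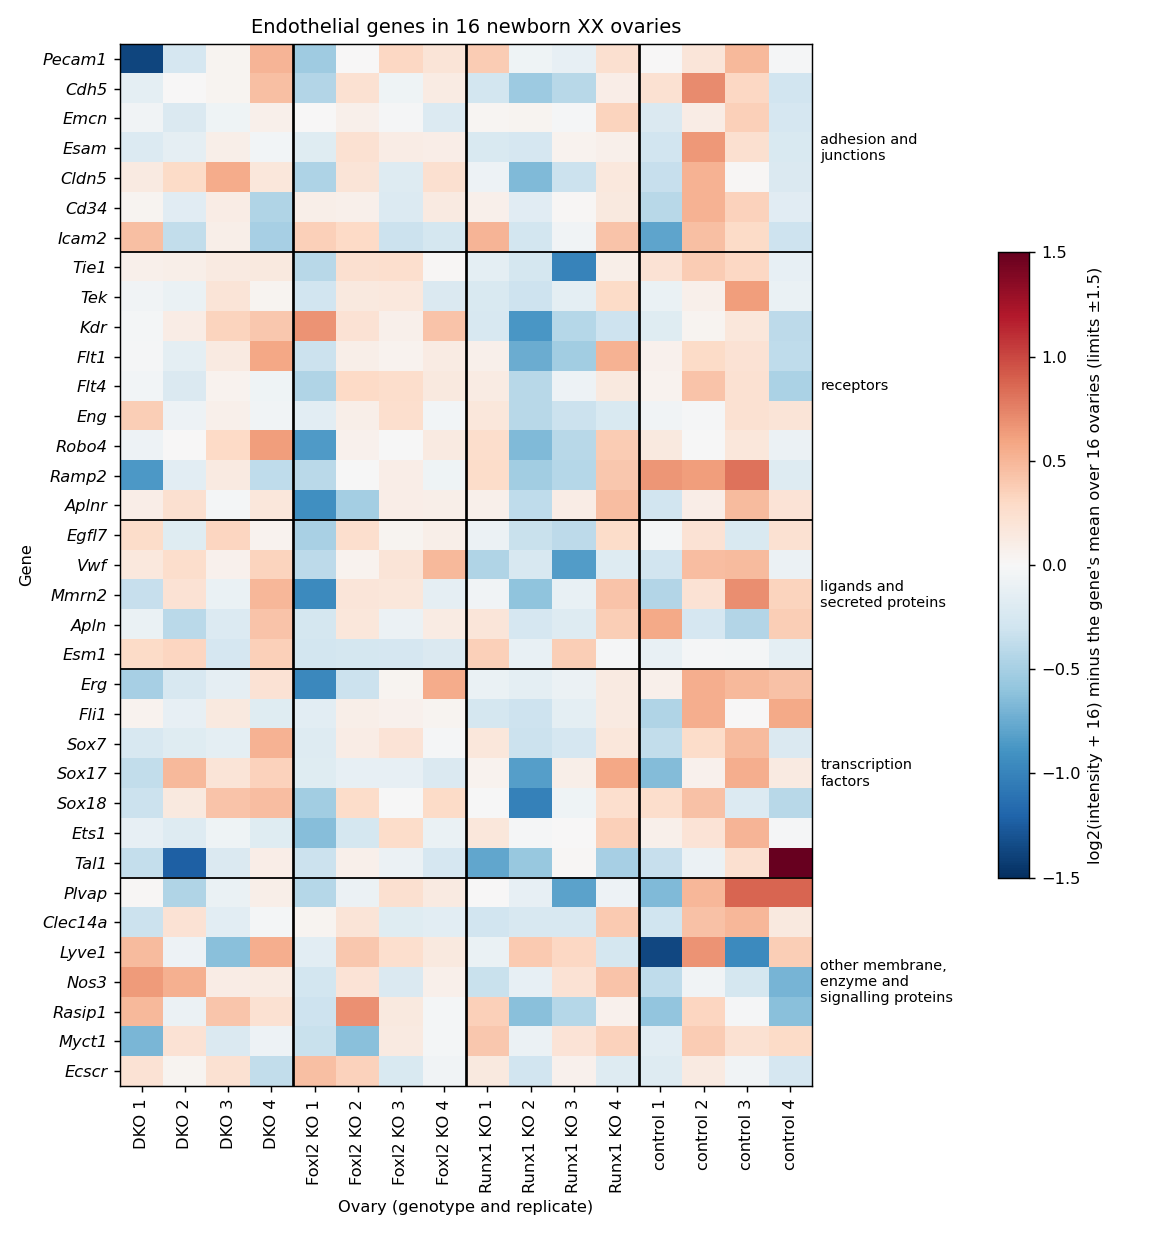
Level of each of the 35 endothelial genes (rows, by role) in each of the 16 ovaries (columns, by genotype), as log2(intensity + 16) minus the mean of the gene over the 16 ovaries, with red above and blue below. No block of genes separates a genotype, whole columns such as Foxl2 KO ovary 1 and Runx1 KO ovary 2 are bluer than their replicates, and Tal1 is at 1244 in control ovary 4.

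How small a change could have been missed is given by the 95% intervals of the fit. They lay within a 2-fold change either way for 27 of the 35 members in DKO ovaries, 29 in Foxl2 KO ovaries and 30 in Runx1 KO ovaries, and within a 1.5-fold change for 12, 13 and 11. On the fitted scale, which adds an offset to each intensity, a 2-fold change was thus outside the interval for most members. For most members a 1.5-fold change was not. The offset understates changes of dim genes, so a larger change in their level could lie within these bounds. Esm1, at background, was within the 2-fold bound in Foxl2 KO ovaries. It read 0.388 to 1.13 there, against 2.00 to 3.66 in control ovaries. The interval passed a 2-fold change in all 3 comparisons for Plvap, Ramp2, Tal1 and Lyve1. The range of the 4 genotype means was below the spread within genotypes (1 SD) for 17 members (48.6%), against 40.8% of all genes.

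**Figure D2:**
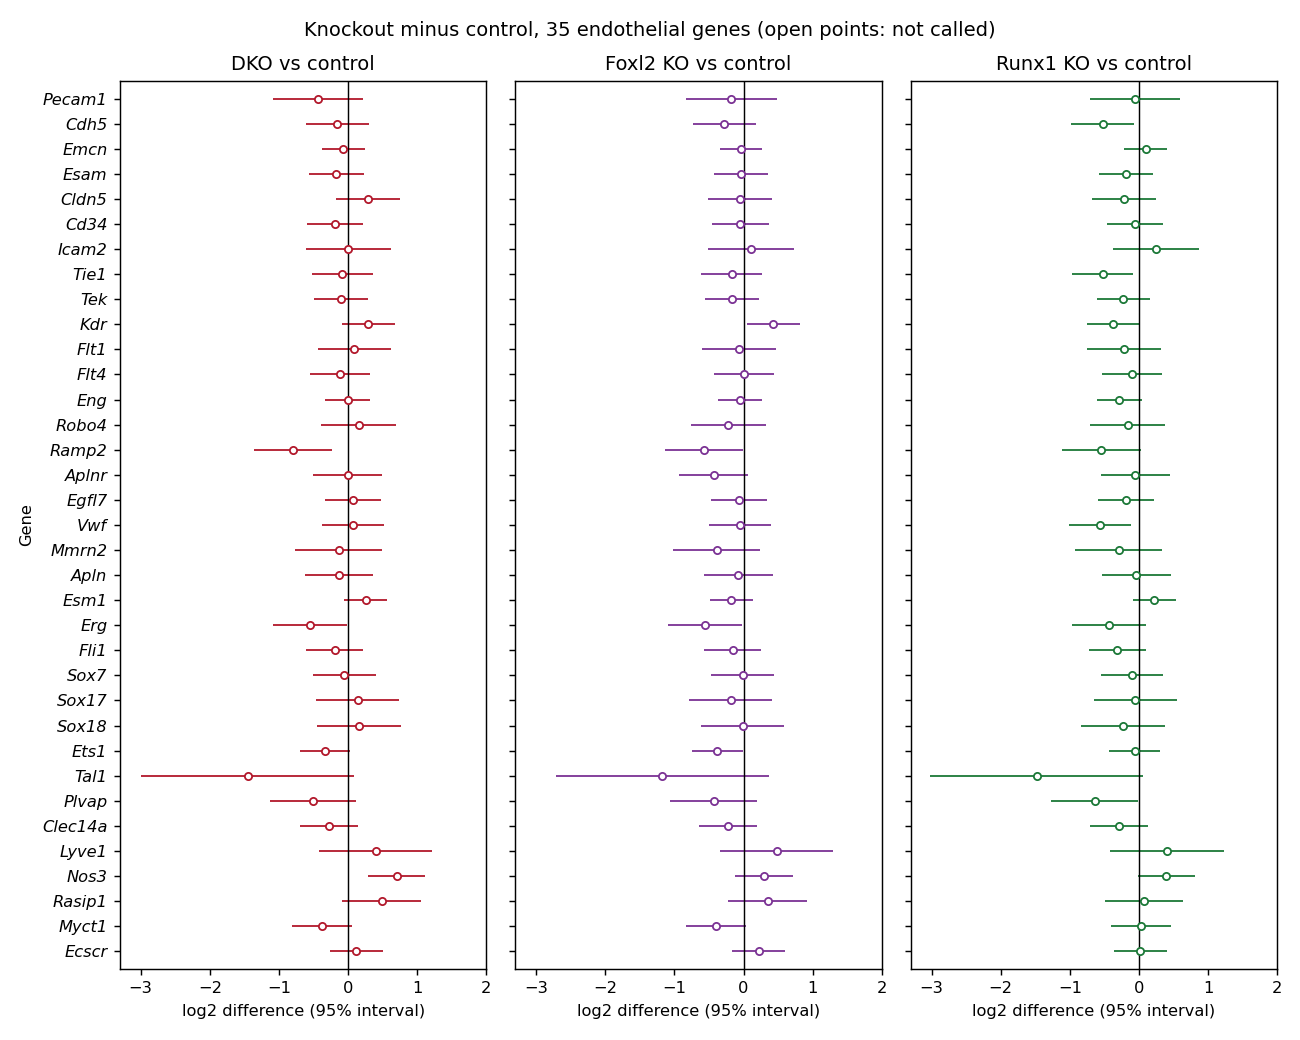
Log2 difference from control of each of the 35 genes in DKO, Foxl2 KO and Runx1 KO ovaries (left to right), with its 95% interval from the limma fit. All points are open because 0 of 35 passed an adjusted p under 0.05, and the widest intervals are those of Tal1, whose control mean rests on 1 ovary.

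Among the receptors, Kdr, the main VEGF receptor of endothelium, differed most by Foxl2 status. It read 767, 844, 986 and 1036 in DKO ovaries, 1252, 909, 822 and 1051 in Foxl2 KO ovaries, 658, 418, 575 and 627 in Runx1 KO ovaries and 688, 803, 883 and 592 in control ovaries. All 8 ovaries without Foxl2 were above the 4 Runx1 KO ovaries, and above 2 of the 4 control ovaries. Against control, Kdr differed by 0.43 ± 0.18 on the log2 scale in Foxl2 KO ovaries (SE; limma adjusted p = 0.367), by 0.29 ± 0.18 in DKO ovaries (adjusted p = 0.555) and by -0.38 ± 0.18 in Runx1 KO ovaries (adjusted p = 0.683). It was 1.59-fold higher in DKO than in Runx1 KO ovaries (log2 0.67 ± 0.18, limma adjusted p = 0.112), and the 2 genotypes did not overlap, as for 3.22% of all genes in that direction.

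Pooling ovaries by Foxl2 status, a comparison chosen after these values were seen, brought Kdr past the threshold. Across both Runx1 states, the 8 ovaries without Foxl2 were 1.47-fold higher than the 8 with it (log2 0.55 ± 0.13, 95% interval 0.28 to 0.82, limma adjusted p = 0.0225). Kdr was the only one of the 35 members called, 3.14% of all genes being called in this comparison. At an unadjusted limma p under 0.05 there were 5 members, against 12.9% of all genes. Kdr and Nos3 were higher, and Ets1, Ramp2 and Myct1 lower, in ovaries without Foxl2. The Kdr call was lost without DKO ovary 4 (limma adjusted p = 0.0515). Leaving out each ovary in turn gave differences of 0.48 to 0.60 and limma adjusted p values of 0.0202 to 0.0515, so the call was near the threshold. Beyond these omissions, only equal array medians (limma adjusted p = 0.0269) and quantile normalization (0.0131) were tried for it. Pooled by Runx1 status in the same way, 0 of 35 members were called, with 0.28% of all genes called and 2 members, Nos3 and Esm1, at an unadjusted limma p under 0.05 (background 7.27%). The Kdr difference by Runx1 status was -0.26 ± 0.13.

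The angiopoietin receptors gave smaller differences. Tie1, an orphan receptor that modulates TEK, read 111, 113, 117 and 118 in DKO ovaries, 74.8, 127, 128 and 107 in Foxl2 KO ovaries, 93.9, 85.3, 44.5 and 112 in Runx1 KO ovaries and 124, 142, 134 and 95.3 in control ovaries. The DKO ovaries were close to each other, and the Runx1 KO ovaries (-0.52 ± 0.21 from control, limma adjusted p = 0.591) included the lowest of all 16, ovary 3, without which the difference was -0.30. Tek, the angiopoietin receptor itself, read 614, 591, 732 and 657 in DKO ovaries, 519, 706, 714 and 547 in Foxl2 KO ovaries, 539, 508, 573 and 781 in Runx1 KO ovaries and 591, 673, 989 and 591 in control ovaries. All 4 genotypes overlapped, and the log2 differences of Tek from control were -0.10, -0.17 and -0.23 in DKO, Foxl2 KO and Runx1 KO ovaries, each ± 0.18.

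Ramp2, which turns the calcitonin receptor-like receptor into the receptor for adrenomedullin, had the largest negative difference of the receptors. It read 423, 698, 863 and 595 in DKO ovaries, 590, 781, 839 and 746 in Foxl2 KO ovaries, 952, 541, 577 and 1041 in Runx1 KO ovaries and 1247, 1215, 1393 and 685 in control ovaries. Control ovaries 1 to 3 were above all 12 knockout ovaries and control ovary 4 was among them. The differences from control were -0.80 ± 0.27 in DKO ovaries (limma adjusted p = 0.177), -0.57 ± 0.27 in Foxl2 KO ovaries (adjusted p = 0.452) and -0.55 ± 0.27 in Runx1 KO ovaries (adjusted p = 0.693). Without control ovary 4, and with the arrays brought to equal medians, the DKO difference was -1.03 and its limma adjusted p 0.0414, a setting added after the data were seen. The blood cell genes of that ovary are given above, and their part in the Ramp2 value was not tested.

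The other 5 receptors, which are the VEGF receptors Flt1 and Flt4, the TGF-beta co-receptor Eng, the guidance receptor Robo4 and the apelin receptor Aplnr, differed from control by -0.43 to 0.16 over the 3 knockouts. The lowest was Aplnr in Foxl2 KO ovaries, which read 1906, 2550, 3895 and 3865, against 2963, 3881, 5059 and 4199 in control ovaries (limma adjusted p = 0.537). The groups overlapped, since 2 of the 4 Foxl2 KO ovaries lay within the control range. All 9 receptors were lower in Runx1 KO than in control ovaries, with a median difference of -0.23 and none called. This was not particular to receptors, since all 7 transcription factors were lower there too. Such counts rest on few ovaries: without Runx1 KO ovary 2, the higher members of the whole list went from 8 to 16.

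The junction proteins covered the classical pan-endothelial markers. Pecam1, an adhesion molecule of endothelium, platelets and leukocytes, read 149, 341, 422 and 591 in DKO ovaries, 278, 410, 511 and 471 in Foxl2 KO ovaries, 540, 391, 374 and 489 in Runx1 KO ovaries and 413, 466, 582 and 406 in control ovaries. DKO ovary 1 was far below the rest while DKO ovary 4 was the highest of all 16, and the DKO difference of -0.43 ± 0.31 lay within that spread (limma adjusted p = 0.630). Cdh5, the cadherin of endothelial junctions, read 615, 685, 704 and 940 in DKO ovaries, 500, 804, 655 and 744 in Foxl2 KO ovaries, 562, 463, 507 and 732 in Runx1 KO ovaries and 807, 1125, 855 and 556 in control ovaries. In Runx1 KO ovaries it was -0.53 ± 0.21 from control (limma adjusted p = 0.605), with 2 of the 4 ovaries below the lowest control ovary. A second probe set for the gene gave -0.26, and over all alternatives tried the difference ran from -0.71 to -0.26. The remaining junction members, Emcn, Esam, Cldn5, Cd34 and Icam2, differed from control by -0.22 to 0.29 over the 3 knockouts.

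Among the transcription factors, Erg, an ETS factor of mature endothelium, had a lower mean in all 3 knockouts, none of which passed the test. It read 118, 145, 157 and 205 in DKO ovaries, 81.3, 136, 180 and 264 in Foxl2 KO ovaries, 162, 156, 162 and 193 in Runx1 KO ovaries and 184, 261, 250 and 242 in control ovaries. In each knockout 1 of the 4 ovaries exceeded the lowest control ovary, and the differences in DKO, Foxl2 KO and Runx1 KO ovaries were -0.55 ± 0.25 (limma adjusted p = 0.380), -0.56 ± 0.25 (adjusted p = 0.423) and -0.43 ± 0.25 (adjusted p = 0.738). The other probe set for Erg gave -0.07, -0.15 and 0.02, smaller in each knockout and of the other sign in Runx1 KO ovaries.

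Ets1, a related factor that is also abundant in lymphocytes, read 1206, 1150, 1261 and 1165 in DKO ovaries, 843, 1092, 1595 and 1226 in Foxl2 KO ovaries, 1490, 1302, 1325 and 1695 in Runx1 KO ovaries and 1392, 1524, 1888 and 1303 in control ovaries. The 4 DKO ovaries lay below all 4 control ovaries and all 4 Runx1 KO ovaries, as did 2.71% of all genes in each of these comparisons. The differences from control were -0.34 ± 0.17 in DKO ovaries (limma adjusted p = 0.462) and -0.38 ± 0.17 in Foxl2 KO ovaries (adjusted p = 0.436), and 2 of its other probe sets turned the direction in Foxl2 KO ovaries (0.03 and 0.10). Sox17, a SOXF factor of arterial endothelium, read 225, 422, 341 and 379 in DKO ovaries, 260, 270, 269 and 252 in Foxl2 KO ovaries, 308, 159, 315 and 448 in Runx1 KO ovaries and 183, 309, 440 and 325 in control ovaries, with all genotypes overlapping. Fli1, Sox7 and Sox18 differed from control by -0.32 to 0.16 over the 3 knockouts.

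Tal1, a transcription factor of blood and endothelial precursors, stood apart in a single ovary. It read 33.7, 11.3, 38.7 and 52.1 in DKO ovaries, 34.8, 51.2, 44.1 and 37.6 in Foxl2 KO ovaries, 21.2, 27.1, 48.7 and 29.1 in Runx1 KO ovaries and 34.1, 43.8, 59.3 and 1244 in control ovaries. The other 15 ovaries lay between 11.3 and 59.3, so the fitted differences of -1.45, -1.17 and -1.48 in DKO, Foxl2 KO and Runx1 KO ovaries (each ± 0.73), the largest of all members, rest on control ovary 4. In the same ovary 4 of the 5 erythroid genes were high: Klf1 read 2114, Slc4a1 9842, Alas2 1391 and Epb42 812, against 22.8 to 73.0, 60.8 to 178, 148 to 388 and 21.8 to 105 in the other 15, while Hba-a1, dim in all ovaries, was not.

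Among the ligands and secreted proteins, Vwf, the clotting factor stored in endothelial granules and platelets, read 235, 254, 219 and 268 in DKO ovaries, 155, 218, 240 and 298 in Foxl2 KO ovaries, 149, 174, 110 and 181 in Runx1 KO ovaries and 169, 293, 295 and 195 in control ovaries. All 4 DKO ovaries were above all 4 Runx1 KO ovaries, as for 3.22% of all genes, and 2 of the Runx1 KO ovaries were above the lowest control ovary. Vwf differed by -0.57 ± 0.21 from control in Runx1 KO ovaries (limma adjusted p = 0.563) and was 1.55-fold higher in DKO than in Runx1 KO ovaries (log2 0.63 ± 0.21, adjusted p = 0.254). The 4 others, the matrix proteins Egfl7 and Mmrn2, the peptide ligand Apln and the proteoglycan Esm1, differed from control by -0.39 to 0.25. The 4 Foxl2 KO ovaries were below the 4 control ovaries in Esm1, as in 2.23% of all genes, but its readings (at most 9.62 in any ovary) were at background.

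Nos3, the nitric oxide synthase of endothelium, came closest to the threshold of all members in a comparison with control. It read 151, 139, 99.0 and 101 in DKO ovaries, 72.2, 107, 76.1 and 96.7 in Foxl2 KO ovaries, 68.7, 82.2, 108 and 128 in Runx1 KO ovaries and 66.3, 86.7, 73.3 and 49.6 in control ovaries. Every DKO ovary was above every control ovary, as for 4.9% of all genes in that direction, and both single knockouts lay between, overlapping with each side. The DKO mean was 1.63-fold the control mean (log2 0.70 ± 0.20, limma adjusted p = 0.0861). The adjusted p ran from 0.0694 to 0.248 over the alternatives tried.

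Plvap, which forms the diaphragms of fenestrated endothelium, read 95.5, 64.3, 86.3 and 101 in DKO ovaries, 66.0, 87.1, 114 and 104 in Foxl2 KO ovaries, 94.4, 85.3, 46.9 and 88.5 in Runx1 KO ovaries and 53.4, 139, 186 and 186 in control ovaries. Control ovaries 2 to 4 were above all 12 knockout ovaries and control ovary 1 was below all but 1, and the differences of -0.51, -0.43 and -0.64 (each ± 0.30) had limma adjusted p values of 0.533, 0.666 and 0.668 in DKO, Foxl2 KO and Runx1 KO ovaries. Lyve1, the hyaluronan receptor of lymphatic vessels, read 171, 111, 70.9 and 180 in DKO ovaries, 105, 162, 144 and 133 in Foxl2 KO ovaries, 110, 161, 151 and 96.2 in Runx1 KO ovaries and 36.1, 198, 53.3 and 158 in control ovaries. The control ovaries spanned the whole range of the knockouts, and no difference could be read from it. Rasip1, Myct1, Clec14a and Ecscr differed from control by -0.40 to 0.49 over the 3 knockouts.

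**Figure D3:**
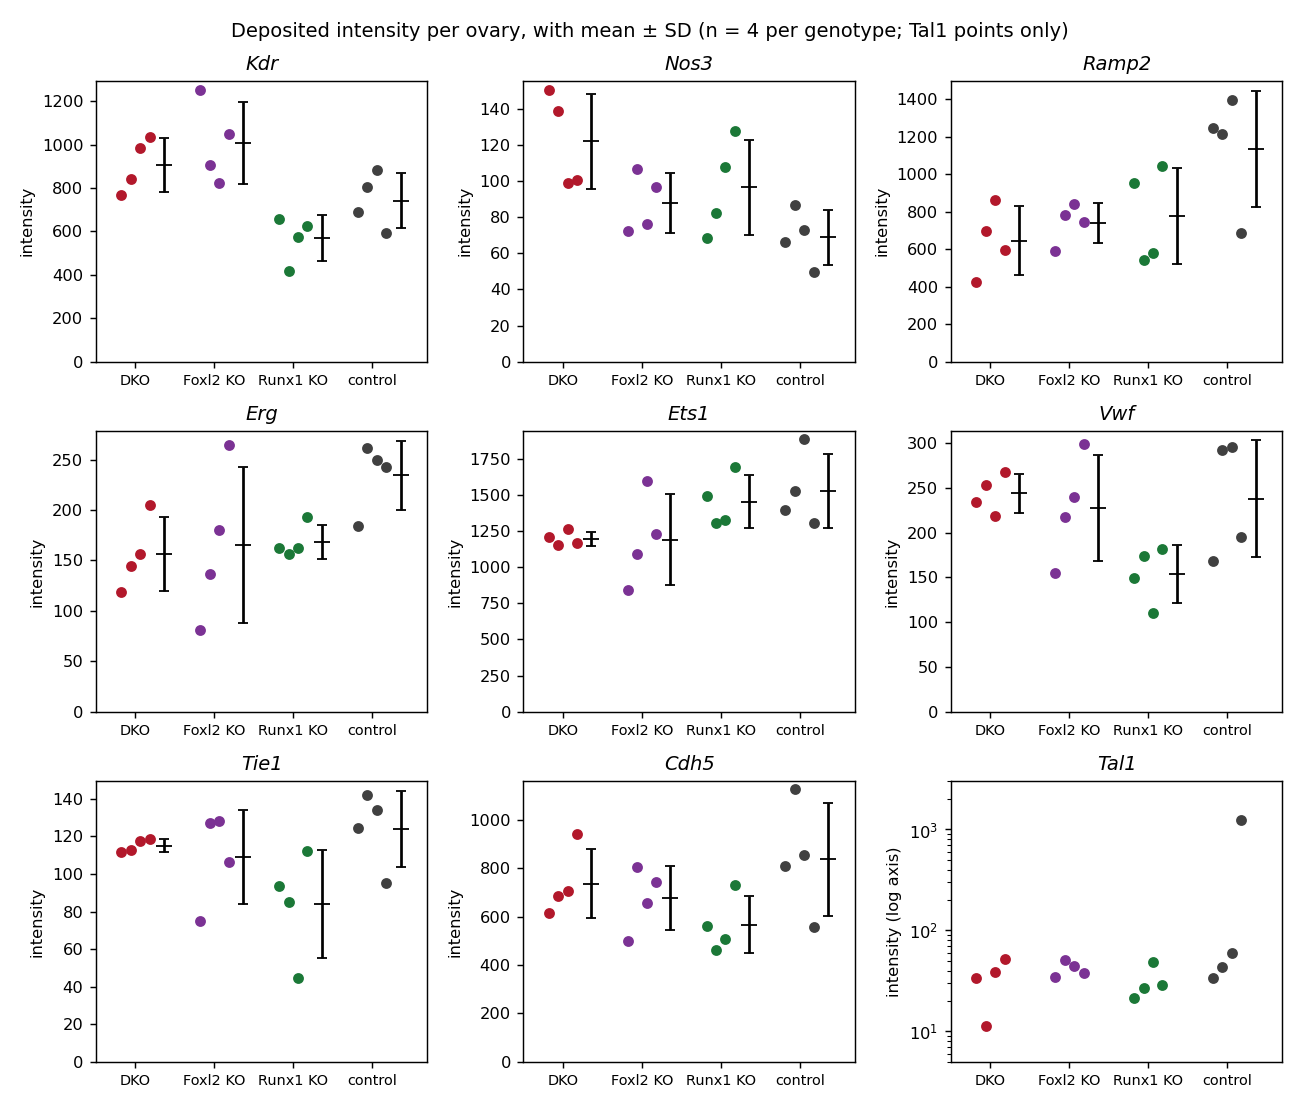
Deposited intensity of 9 endothelial genes in each ovary (points), with the mean and SD of the 4 ovaries of each genotype (bars; no bars for Tal1, which is on a log axis). Kdr is lowest in Runx1 KO ovaries (418 to 658), Nos3 is higher in the 4 DKO ovaries (99.0 to 151) than in the 4 control ovaries (49.6 to 86.7), and control ovary 4 stands apart in Ramp2 and Tal1.

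Double loss was also set against each single loss. Between DKO and Foxl2 KO ovaries, limma called 0 of 35 members, with 0.0605% of all genes called, 1 member at an unadjusted p under 0.05 (Esm1, higher, background 5.38%, 2.49% higher and 2.89% lower) and 19 members higher. Leaving out Foxl2 KO ovary 1 brought the 19 to 9. No member separated these 2 genotypes without overlap, as 1.78% of all genes did higher and 1.79% lower. Between DKO and Runx1 KO ovaries it called 0 of 35, with 0.989% of all genes called, and 3 were higher at an unadjusted p under 0.05 (Kdr, Vwf and Cldn5, background 9.43%, 5.28% higher and 4.14% lower). There 24 members were higher and 11 lower, with a median of 0.10 beside 0.02 over all genes, and without Runx1 KO ovary 2 the 24 became 17, so that the majority turned. Ets1 was lower and Kdr and Vwf higher without overlap between these 2 genotypes (background 3.22% higher and 2.71% lower).

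The interaction, which asks whether the effect of losing Runx1 depended on Foxl2, called 0 of 35 members, with 0.011% of all genes called. Of the members, 26 had a positive and 9 a negative interaction, with a median of 0.28 beside -0.03 over all genes, and 2 of them, Vwf (0.69 ± 0.30) and Cdh5 (0.65 ± 0.30), had an unadjusted limma p under 0.05, against 5.33% of all genes, 1.93% with a positive and 3.4% with a negative value. A positive value here means that DKO minus Foxl2 KO was above Runx1 KO minus control. The 95% interval was within 2-fold either way for 18 members, so that this comparison was the least precise of the 6.

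The members varied together between ovaries of the same genotype. Over the deviations of the 16 ovaries from their genotype means, the mean correlation of 2 members was 0.29 (595 pairs), beside 0.0087 over all genes, and 23 of the 35 correlated above 0.5 with the mean of the other members. Mmrn2 (0.85), Cldn5 (0.81) and Sox7 (0.80) followed that mean most closely. Ecscr (-0.13), Tal1 (-0.11), Apln (0.08), Esm1 (0.09) and Lyve1 (0.14) did not follow it, and neither Nos3 (0.26) nor Kdr (0.32) followed it closely. These correlations describe 16 ovaries in which all members were read from the same array and the same dissected piece, and no p is given.

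The mean deviation of the 35 members was between -0.07 and 0.15 in the 4 DKO ovaries, between -0.30 and 0.09 in the Foxl2 KO ovaries, between -0.35 and 0.17 in the Runx1 KO ovaries and between -0.19 and 0.29 in the control ovaries, relative to the mean of all 16. All 4 genotypes overlapped. The summed intensity of the members ranged from 15100 to 16930, from 12220 to 16400, from 12220 to 18900 and from 14450 to 20210 in the same order of genotypes.

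The lists of other vessel genes followed the members from ovary to ovary, although not all of their genes are particular to vessels. Nr2f2, in the venous and lymphatic list, encodes COUP-TFII, which the study used as a marker of interstitial cells. Over the 16 ovaries, as deviations from genotype means, the mean of the members without Tal1 correlated with 15 other pan-endothelial genes (Pearson r = 0.81, Spearman rho = 0.85), 10 arterial genes (0.83 and 0.79), 10 pericyte genes (0.81 and 0.83) and 6 venous and lymphatic genes (0.73 and 0.78). Without the 2 ovaries farthest from the median, r was 0.72, 0.74, 0.74 and 0.66. Macrophage genes (r = 0.28 and rho = 0.25), pan-leukocyte genes (-0.10 and -0.24) erythroid genes (-0.23 and -0.10) and megakaryocyte genes (-0.02 and -0.09) did not follow the members, and germ cell genes ran against them (-0.49 and -0.45, with r = -0.32 without the 2 farthest ovaries and -0.68 without control ovary 4). The germ cell genes did not vary alike. In the 15 ovaries other than control ovary 4, Zp3 ran from 395 to 3744 and Gdf9 from 181 to 1726. There Dazl ran from 2386 to 4457 and Sycp3 from 7031 to 10410, so the list mean leans on its most variable genes. The summed level of the 9 germ cell genes was 25850 to 29520 in DKO, 26310 to 31450 in Foxl2 KO, 24680 to 34350 in Runx1 KO and 19910 to 31130 in control ovaries, and its part in the spread of the members was not tested.

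**Figure D4:**
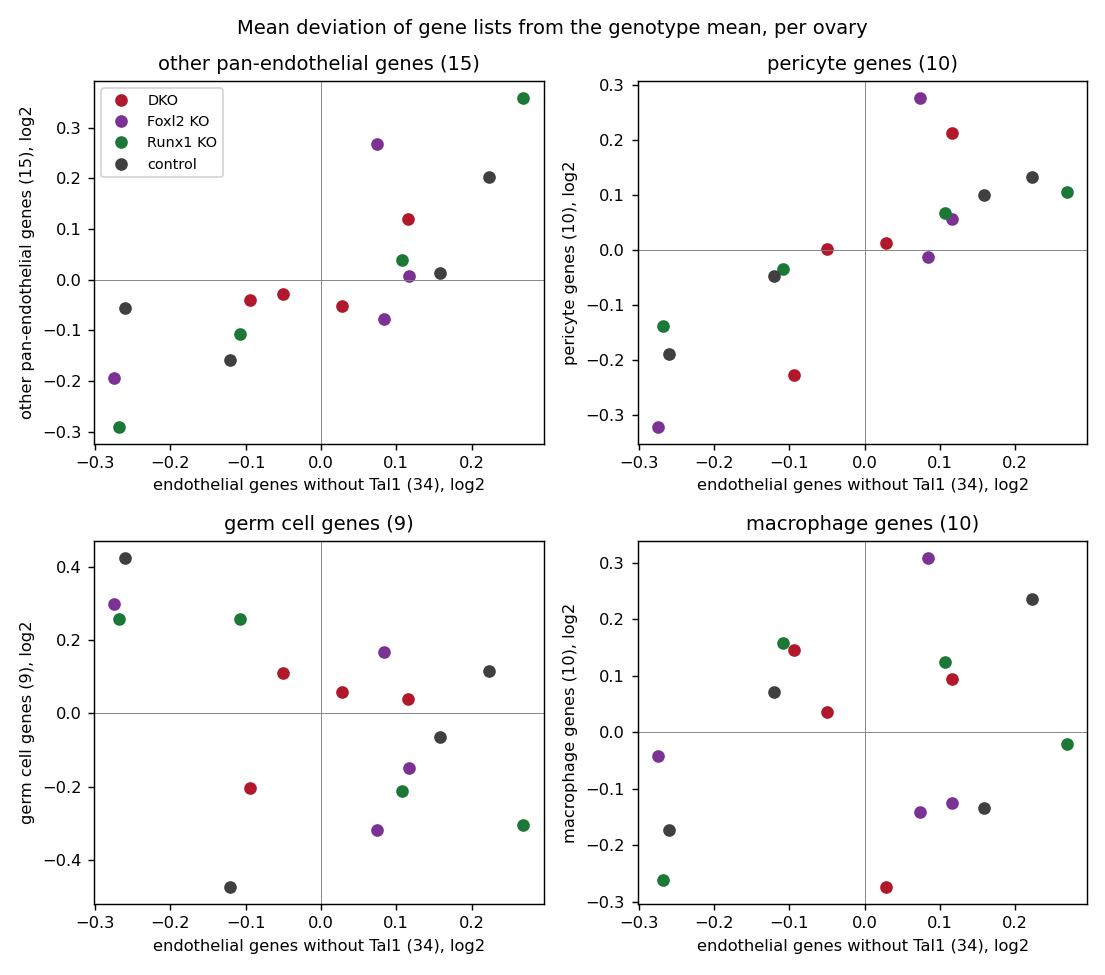
Mean deviation of 4 gene lists from their genotype mean (vertical axes, log2) against that of the 34 endothelial members other than Tal1 (horizontal axes, log2), with 1 point per ovary coloured by genotype. Ovaries with higher members also have higher other pan-endothelial genes (r = 0.81) and pericyte genes (r = 0.81), germ cell genes run the other way (r = -0.49) and macrophage genes show little relation (r = 0.28).

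The 8 genes outside the lists whose deviations were most like the mean of the members over the 16 ovaries were Nynrin (r = 0.92), Tshz2 (0.90), Loxl1 (0.90), Lbh (0.90), Wnt5a (0.89), Sfrp1 (0.89), Dact1 (0.89) and Slc6a8 (0.89). Wnt5a is a Wnt ligand, Sfrp1 a secreted Wnt antagonist, Loxl1 an enzyme that crosslinks elastin and Slc6a8 the creatine transporter. They were chosen from all genes as the highest, and they share the arrays and dissections of the members. A ranking of all genes always yields some high correlations, so these 8 are a description only and nothing was tested with them.

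The rest of the vessel pathway gave few calls. Of 8 ligands of the VEGF and angiopoietin families and adrenomedullin, limma called 0 in each knockout against control. Vegfa, the ligand of KDR, read 608, 451, 516 and 748 in DKO ovaries, 359, 462, 615 and 604 in Foxl2 KO ovaries, 348, 281, 279 and 438 in Runx1 KO ovaries and 227, 484, 417 and 327 in control ovaries. Its difference from control was 0.68 ± 0.24 in DKO ovaries (limma adjusted p = 0.214), 0.49 ± 0.24 in Foxl2 KO ovaries (adjusted p = 0.481) and -0.08 ± 0.24 in Runx1 KO ovaries (adjusted p = 0.962), and each knockout overlapped with control. The 8 ligands together correlated with the members at r = 0.66 and rho = 0.58 over the 16 ovaries. Angpt1, the agonist of TEK, differed by 0.34, 0.28 and 0.05 (each ± 0.19), and Angpt2, its context-dependent antagonist, by -0.27, -0.07 and -0.24 (each ± 0.25), in DKO, Foxl2 KO and Runx1 KO ovaries.

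Of the 15 other pan-endothelial genes, 0 were called against control in any knockout, and 2 were called between DKO and Runx1 KO ovaries, where 0.989% of all genes were called. Exoc3l2, an exocyst-related protein of endothelium, read 669, 480, 710 and 561 in DKO ovaries, against 325, 241, 219 and 402 in Runx1 KO ovaries (log2 1.01 ± 0.23, limma adjusted p = 0.0471). Gpihbp1, which anchors lipoprotein lipase in capillaries, read 117, 109, 104 and 122 in DKO ovaries, against 230, 163, 216 and 148 in Runx1 KO ovaries (log2 -0.65 ± 0.13, limma adjusted p = 0.0288). Exoc3l2 rose and Gpihbp1 fell, with no overlap of the groups in either, as for 3.22% of all genes higher and 2.71% lower.

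Of the pericyte list, 1 of 10 genes was called, Anpep, an aminopeptidase that other stromal cells also make. It read 1407, 1080, 1396 and 1141 in DKO ovaries, 1483, 1466, 1543 and 1215 in Foxl2 KO ovaries, 506, 428, 496 and 650 in Runx1 KO ovaries and 808, 964, 574 and 455 in control ovaries. It rose in DKO ovaries (log2 0.88 ± 0.20, limma adjusted p = 0.0339) and in Foxl2 KO ovaries (1.06 ± 0.20, adjusted p = 0.0125) against control. In these comparisons 2.13% and 1.52% of all genes were called. Anpep was also higher in DKO than in Runx1 KO ovaries (log2 1.25). There 1 of the 10 pericyte genes was called, and 0.989% of all genes. None of the 10 arterial and 6 measured venous and lymphatic genes was called in any of these comparisons, and the number of those genes at an unadjusted limma p under 0.05 against control was 2 and 1 in DKO (12.4% of all genes), 1 and 0 in Foxl2 KO (11%) and 0 and 0 in Runx1 KO ovaries (7.34%). Of the lists for other cell types, the 5 erythroid, 7 megakaryocyte, 10 macrophage, 6 pan-leukocyte and 9 germ cell genes measured had 0 called against control in any knockout. The 8 pre-granulosa genes, Foxl2 among them, had 3 called lower in DKO ovaries (2.13% of all genes called) and 2 lower in Foxl2 KO ovaries (1.52%). In Runx1 KO ovaries 0 of them were called (0.121%). Between DKO and Runx1 KO ovaries 2 of them were called lower in DKO (0.989%). The genes of the list did not fall together. In DKO ovaries 5 of the 8 were higher and 3 lower than in control, with a median of 0.07 beside 0.04 over all genes. The mean deviation of the list, Foxl2 included, was lower in DKO (-0.33 to -0.18) than in control ovaries (-0.04 to 0.51). It was -0.48 to 0.11 in Foxl2 KO and -0.05 to 0.32 in Runx1 KO ovaries. The pre-granulosa list correlated with the members at r = 0.40 and rho = 0.55.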

How the data were processed

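Total RNA of 1 newborn ovary per array was amplified, labelled and hybridised to Affymetrix Mouse Genome 430 2.0 arrays by the authors. The deposited values are linear probe set intensities, which per the labels came from Affymetrix Expression Console 1.2. The summarisation algorithm is not given in the sources used here; the study's methods name RMA log2 values, which these are not. The file shows each array scaled to a mean of 500 after trimming the lowest and highest 2% of probe sets, with array medians of 134 to 177, and such scaling makes every level relative to the rest of the array. The number of arrays, not a read depth, limits the precision.

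Of 45101 probe sets, 64 controls, 932 that name several genes and 9160 with no gene in the platform annotation were left out, and 34945 gave 18193 genes, each read by its probe set with the highest mean. Of the members, 20 had 1 probe set and 15 had several. Intensities were taken as log2(value + 16), which understates changes of dim genes, and fitted with limma 3.58.1 in R 4.3.3 as 4 genotype means over 16 arrays (12 residual degrees of freedom), two-sided, with Benjamini-Hochberg adjustment over 18193 genes and calls at an adjusted p under 0.05. Fold values given beside a log2 difference are those of intensity + 16. The fit was tested on simulated data. Non-overlap means that every ovary of a genotype lay beyond every ovary of the other. Alternatives changed the scaling, offset, floor, probe set, filter, prior and array weights, left out each ovary in turn, used the replicate number as a block, or used the ANOVA that the study's methods name. Described with values per ovary were the 3 members with the smallest p in each knockout against control and Pecam1, Cdh5, Kdr, Tek, Erg, Sox17, Plvap and Lyve1; genes outside the list were Vegfa, Angpt1, Angpt2, called genes of the other lists and the 8 most alike genes. Ramp2 under the added setting, Tal1, members named in pooled ovaries and genes listed for not overlapping were named after their values were seen. The members, lists and pooled comparisons were chosen with earlier results of these data known. Promoters and gene positions were those of RefSeq on GRCm38.p6. The ovaries are separate animals or gonads by the methods, so that p-values measure the spread between ovaries.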

Additional observations from a re-analysis of the deposited data

Results flagged for a closer look

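Of 144 genotype groups examined (35 members and their mean deviation in 4 genotypes), 10 (6.94%) had an ovary whose gap to its nearest neighbour, divided by the range of the group, exceeded Dixon's critical value for 4 samples, and chance gives about 1 in 20. The ratios were taken on log2(intensity + 16), and the values beside them are given as intensity, or as log2 for the mean deviation.

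In Foxl2 KO ovaries, ovary 1 was low in Flt1 (144.5, the others 191 to 202, ratio 0.8313) and in Robo4 (110.1, the others 210.0 to 234, ratio 0.8526), and in the mean deviation of the members (-0.30, the others 0.04 to 0.09, ratio 0.8827). Ovary 3 was low in Cd34 (853, the others 1046 to 1088, ratio 0.8347). In Runx1 KO ovaries, ovary 4 was high in Emcn (912, the others 710.3 to 739, ratio 0.8413) and in Clec14a (409, the others 248 to 258, ratio 0.9216), and ovary 3 was low in Plvap (46.9, the others 85.3 to 94.4, ratio 0.8458). In DKO ovaries, ovary 4 was high in Sox7 (202, the others 113 to 122, ratio 0.8728) and ovary 3 was low in Esm1 (0.690, the others 8.28 to 9.55, ratio 0.8799), which was at background. In control ovaries, ovary 4 was high in Tal1 (1244, the others 34.1 to 59.3, ratio 0.8736).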

How the results depend on the processing

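Of the counts of called members, 169 of 172 values stayed at 0, the value reported. All 130 medians moved by less than the spread between ovaries. That rule lets a small median change sign, as the median of DKO against control did (-0.14 to 0.04). In DKO against control, 1 member was called with equal array medians and without control replicate 4 (Ramp2, -1.03, limma adjusted p = 0.0414). That alternative was chosen after seeing the data, and it called 339 of all 18193 genes. The ANOVA that the study's methods name (unadjusted p under 0.05 and a fold change over 1.5) called 2 members in DKO against control. It also called 2 in DKO against Runx1 KO. The share of all genes passing that ANOVA is not given here, so these counts are not read as a result about the members. In limma, 12.4% and 9.43% of all genes had an unadjusted p under 0.05 in these 2 comparisons. Of the values for named members, 267 of 271 kept direction and side of the threshold. Ets1 in Foxl2 KO ovaries turned to 0.026 and 0.10 with 2 of its other probe sets (limma adjusted p = 0.986 and 0.927), and the Kdr difference by Foxl2 status was 0.52 without DKO replicate 4 (limma adjusted p = 0.0515). The cause was not tested. Leaving out each ovary in turn, the counts of called members stayed at 0 in all 6 comparisons. The median difference of the members ran from -0.14 to 0.04 in DKO, -0.19 to -0.01 in Foxl2 KO and -0.28 to -0.01 in Runx1 KO ovaries against control, from -0.02 to 0.12 for DKO against Foxl2 KO and from -0.01 to 0.18 for DKO against Runx1 KO.

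With the replicate number as a block, 0 members were called in each comparison and the median differences from control stayed at -0.07, -0.07 and -0.18. The number is only a number here: of 24 same-numbered pairs of ovaries, 1 correlated above 0.1 in its deviations (median -0.03).

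Dim members limit what can be read: 17 of the 35 lay below the reading of the Y-linked gene Sry in every genotype, and Esm1 was at background. Sry was the highest of the 6 Y-linked readings. Below the next highest, 55.4 for Usp9y, only Esm1 lay in every genotype.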
